A study of Mus musculus with 16 samples.

Results

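In mouse embryonic stem cells, a set of 100 array probes for 89 named genes had their late rise in common with the control: they lay well above 0 h both after 48 h of E1A induction and in a 48 h control, and their means at 12 h were close to those at 0 h. E1A, an early protein of adenovirus, is known to bind retinoblastoma proteins and the acetyltransferases p300 and CBP. Members were chosen from the normalized log2 intensities themselves: the mean at 48 h and the mean in the control each lay at least 1.2 above the 0 h mean, and the 12 h mean lay within 0.3 of it. The 100 probes came from 13974 that passed a detection filter, of 25697 on the array. Of the 100, 96 have 1 gene symbol each and 4 have none. The 89 genes, 6 of which are held by more than 1 member probe, are of 9614 genes tested.

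Total RNA was measured on 16 single-colour Illumina bead arrays, 2 for each of 8 groups. All cells had the labelled mixed background of the strains C57BL/6, C3H and CD1, and all groups carry the treatment label E1A induction. The groups were harvested at 0, 3, 6, 9, 12, 24 and 48 h of induction, and the eighth, called a cherry control, at 48 h. The labels do not say whether the control cells carried E1A, nor whether the 0 h cells were their starting point, and no probe named for E1A was analysed here. They also do not say that the arrays of a group came from separate cultures, so p-values reflect only how far these samples vary, and that variation may be technical.

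The set mixes several kinds of gene. Lysosomes break down proteins, lipids and glycans with acid hydrolases, and their genes are under nutrient-sensing control. Ddit3 (CHOP) and Cebpb encode transcription factors of the C/EBP family, and Ddit3 is a classic target of ATF4 when protein folding or amino acid supply is disturbed. Type IV collagen and laminin form the basement membrane, which cells of the primitive endoderm, the extraembryonic lineage that arises beside pluripotent cells, secrete in large amounts.

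Promoter windows were read for 73 of the 89 member genes from RefSeq (build GRCm38.p6), each running from 250 bases before to 50 bases after an annotated start. 3 stretches of 250 bases upstream of the start are shown because these genes stand for different behaviours described below: Ddit3 had the largest difference at 24 h, Hexa was a lysosomal member with no call between the 48 h groups, and Kdelr3 was higher in the control. All 3 lie on the plus strand, Ddit3 at chr10:127290543-127290792, Hexa at chr9:59539290-59539539 and Kdelr3 at chr15:79516158-79516407. Capitals in Kdelr3 mark the letters TGACGTGG, the core of an unfolded protein response element, read on the reverse strand and starting at position -30.
Ddit3: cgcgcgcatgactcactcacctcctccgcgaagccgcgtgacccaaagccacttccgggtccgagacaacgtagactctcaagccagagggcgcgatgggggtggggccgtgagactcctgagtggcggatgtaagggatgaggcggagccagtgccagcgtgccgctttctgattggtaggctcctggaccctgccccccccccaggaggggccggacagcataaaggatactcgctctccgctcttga
Hexa: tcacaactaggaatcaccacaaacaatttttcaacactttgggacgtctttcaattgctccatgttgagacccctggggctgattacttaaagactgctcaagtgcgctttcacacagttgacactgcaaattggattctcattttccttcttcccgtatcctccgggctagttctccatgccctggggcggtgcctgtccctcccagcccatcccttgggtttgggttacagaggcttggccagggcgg
Kdelr3: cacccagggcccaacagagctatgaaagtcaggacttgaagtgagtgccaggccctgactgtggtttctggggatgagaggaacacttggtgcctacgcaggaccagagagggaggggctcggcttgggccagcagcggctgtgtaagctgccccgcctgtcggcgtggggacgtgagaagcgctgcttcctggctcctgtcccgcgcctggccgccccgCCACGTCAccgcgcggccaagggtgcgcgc

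Each motif was searched as fixed letters on both strands. TGACGTGG was present in the windows of 3 member genes, Kdelr3, Smim14 and Vegfa, which is 4.11% of those with a window, against 1.07% of the 7849 tested genes with one. The C/EBP-ATF element TGATGCAA was found for 1 member, Vldlr, against 0.803% of tested genes. The lysosomal gene core TCACGTGA, called the CLEAR core, was found for 1 member, Fbln1, a matrix gene, against 2.11% of tested genes. It was not found in the windows of the lysosomal members. The letters of a peroxisome proliferator response element with a spacer of 1 free base and of the ER stress response element were found for 0 members, against 0.051% and 0.178% of tested genes. A GC box, GGGCGG, was held by 79.5% of members with a window against 67.4% of tested genes, and TATAAA by 11% against 9.58%. These matches describe letters, not factor binding. The single sites of Vldlr (chr19:27216809-27216838, plus strand) and Fbln1 (chr15:85205856-85205885, plus strand) are given with their motif in capitals.
Vldlr: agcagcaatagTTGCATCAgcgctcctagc
Fbln1: ttagacactttTCACGTGActttctgcctg

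Between 12124 and 12639 probes were detected per array at a detection p under 0.05, and arrays of 1 group correlated at r = 0.995 to 0.997. All 9 measured embryonic stem cell markers, Sox2 and Pou5f1 among them, were detected in every group, so the label of the cells was borne out by their markers. Their summed linear intensity on the 2 arrays of a group was 55965 to 57015 at 48 h, 74214 to 76356 in the control and 71316 to 76331 at 0 h. The sum hides markers that moved apart. Mean log2 intensities at 0 h, 48 h and in the control were 12.84, 11.14 and 12.05 for Pou5f1 and 11.03, 8.54 and 9.10 for Utf1. They were 11.67, 12.09 and 12.47 for Nanog and 11.90, 12.04 and 12.76 for Esrrb. Dppa5a, the brightest, had 14.36, 14.17 and 14.45. Of 9 feeder fibroblast markers, Twist1 and Thy1 were detected in every group, and the collagen genes Col1a1, Col1a2 and Col3a1 in none. Their sums ran from 387 to 465 over all arrays. The sum of 6 primitive endoderm markers, of which Pdgfra is a member, was 2029 to 2114 at 0 h and 1662 to 1774 after 24 h. It was 3534 to 3569 after 48 h and 3364 to 3410 in the control. Gata4 was not detected in either 48 h group, and 5 of the 6 markers were. Dab2 was the brightest of them, with mean log2 intensities of 9.82 at 0 h, 10.64 at 48 h and 10.48 in the control. Sox7 did not share the rise, with 6.64 at 0 h, 5.85 at 24 h, 6.66 at 48 h and 6.55 in the control. Trophectoderm markers summed to 8313 to 8440 at 48 h, 8897 to 8979 in the control and 5848 to 6069 at 0 h, with Cdx2 and Elf5 not detected in these groups. That sum rests mostly on Tfap2c, with mean log2 intensities of 12.43 at 48 h, 12.51 in the control and 11.88 at 0 h. Eomes was detected at 0 h and in neither 48 h group. Mesoderm and neural markers had at most 1 detected gene per group. The part of such cells in the members' rise was not tested, and in these bulk samples fewer cells of a type and less RNA per cell cannot be told apart.

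The late level is described first, without a test, because it chose the members. Of all tested probes, 3.16% reached a difference of 1.2 at 48 h against 0 h, 3.01% reached it in the control and 79.1% stayed within 0.3 of 0 h at 12 h. Both late differences were reached by 250 probes, of which 150 lay 0.3 or more from 0 h at 12 h and are not members. The median member's log2 difference from 0 h was 0.00 after 3 h, 0.06 after 6 h, 0.08 after 9 h, 0.14 after 12 h, 0.45 after 24 h and 1.60 after 48 h, and 1.65 in the control. The largest late differences were 3.07 at 48 h (Cpt1b) and 3.62 in the control (Gsc), each detected on 1 of the 2 arrays of 0 h. Just inside the threshold lay Cidea (1.2 at 48 h and 2.35 in the control), Atp6v1g1 (1.21 and 1.2) and Ppp3cc (1.23 and 1.2). Just outside lay P4ha2 (1.34 and 1.196), Rhou (1.19 and 1.26) and Patl2 (1.19 and 1.35). Both late comparisons use the same 0 h arrays, so their values are set side by side only.

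**Figure D1:**
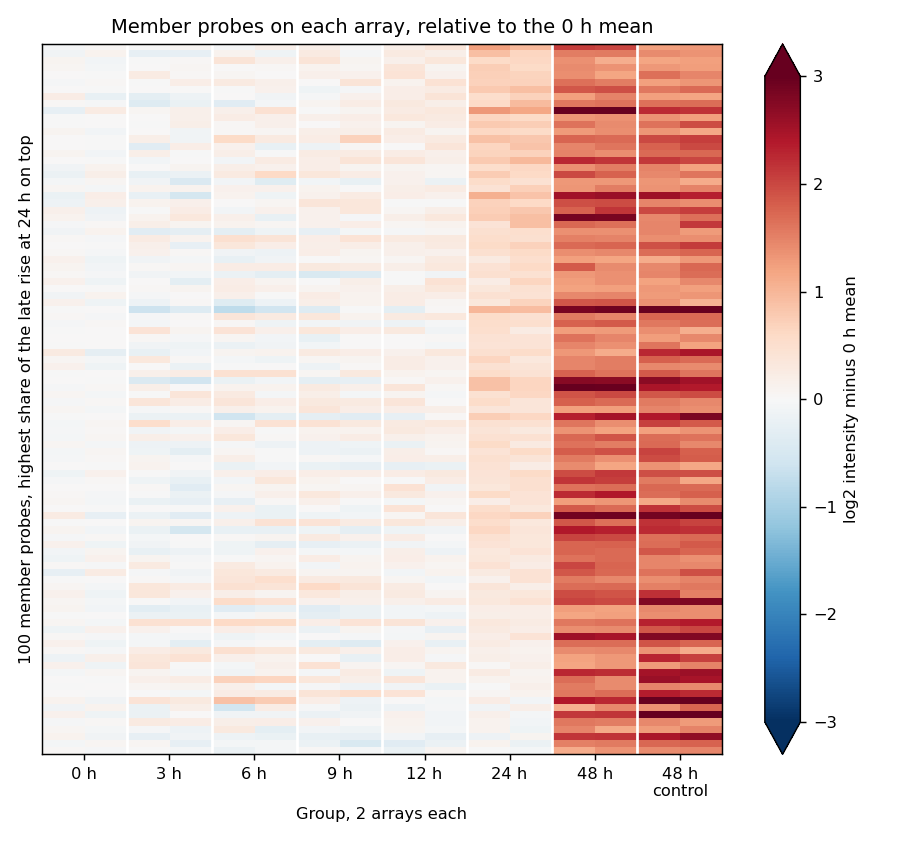
Log2 intensity of the 100 member probes on each of the 16 arrays, as the difference from the mean of the 2 arrays at 0 h (colour scale; blue lower, red higher), with members ordered by the share of their late rise present at 24 h. The columns up to 12 h are near 0, those at 24 h are pale red in the upper rows, and those at 48 h and in the 48 h control are red throughout.

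The level at 24 h was tested on arrays that the rule had not used, the 2 at 24 h against the 6 at 3, 6 and 9 h. Of the 100 members, 71 were higher at 24 h and 2 were lower (limma, adjusted p under 0.05 over all tested probes). Of all tested probes, 13.7% were higher and 13.6% were lower. The members' median difference was 0.43, with a range from -0.33 to 1.42, against -0.01 over all tested probes. Both 24 h arrays lay above all 6 earlier ones for 72 members, which held for 17.5% of all tested probes. Only part of the late rise was present by then: in the median member the 24 h difference from 0 h was 27.7% of the mean late difference. That share was under 10% for 14 members and at least 50% for 2, Scara3 (66.7%, from a 0 h level not above background) and Cebpb (52.4%).

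**Figure D2:**
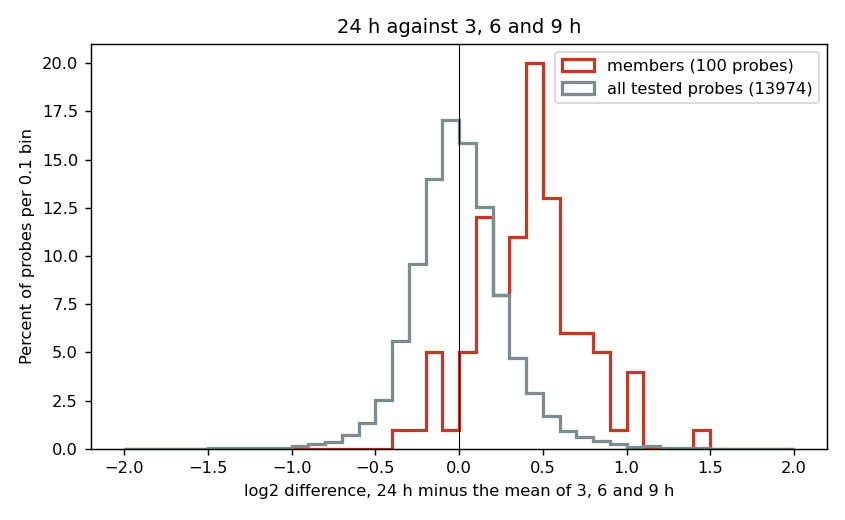
Distribution of the log2 difference of 24 h from the mean of 3, 6 and 9 h, as percent of probes per bin of 0.1, for the 100 members (red) and all 13974 tested probes (grey). The members' distribution lies to the right, with a median of 0.43 against -0.01.

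Before 12 h, where the rule held them, some members had group means away from 0 h. The group mean lay 0.3 or more from 0 h for 8 members after 3 h, 16 after 6 h and 13 after 9 h. At 12 h, 79.1% of all tested probes lay within 0.3 of 0 h. No such share is given for 3, 6 and 9 h, so the counts show nothing particular to the members. Kdelr3 had 8.37 and 8.32 after 6 h against 7.67 and 7.66 at 0 h, and Gsc 5.96 and 5.86 against 5.20 and 4.98. At 9 h against 3 h, 2 members were called higher and 2 lower, near the 3.4% and 2.52% of all tested probes. One of the 3 probes of Vldlr was higher (adjusted p = 0.0334), but neither 3 h array had it well above background, so it was at least 1.19-fold higher only. Slit2, a secreted guidance cue for axons, was called higher (adjusted p = 0.0221), but it was above background on neither 3 h array and on 1 of 9 h, so no fold is given. Ttyh2 (-0.49, adjusted p = 0.0339) and 1 of the 2 member probes of Dhrs7 (-0.33, adjusted p = 0.0491) were lower. Without 3 h replicate 1 or 9 h replicate 1, 1 member was higher and 0 lower, and without 3 h replicate 2 or 9 h replicate 2, 0 and 0.

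Of 4 stress-linked genes, 3 were higher at 24 h, and Ddit3 had the largest difference of all members. Gene groups by role, here and below, were drawn up after the values had been seen. Their counts stand beside 71 of all 100 members and 13.7% of all tested probes called higher at 24 h. Whether any group differs from the members' share was not tested. Ddit3 on the first of its 2 probes had log2 intensities of 8.14 and 8.06 at 24 h, against 6.38 to 7.12 on the arrays of 3, 6 and 9 h. It was 7.12 and 7.17 at 0 h, 9.99 and 10.07 at 48 h and 10.20 and 10.43 in the control. Its level at 3 and 6 h thus lay below that of 0 h, and no 24 h array overlapped the earlier ones. The difference at 24 h was 1.42 (SE 0.11, adjusted p = 1.26e-06), and its intensity was 7.39-fold above 0 h after 48 h and 9.00-fold in the control. Its other probe gave 0.98 (SE 0.11, adjusted p = 2.75e-05). Cebpb, which pairs with Ddit3 and drives acute-phase and adipocyte genes, had 9.31 and 9.06 at 24 h against 8.17 to 8.69 before, a difference of 0.81 (adjusted p = 5.49e-05). Ddb2, which recognises ultraviolet damage in DNA, was higher by 0.40 (adjusted p = 0.044) on its member probe. Of its tested probes outside the set, 1 was higher by 0.52 (adjusted p = 0.00031). The others were not called (0.32, adjusted p = 0.0628, and 0.15, adjusted p = 0.314). Vegfa, the growth factor for blood vessels, is held by 2 tested probes that differed. Its member probe had 5.84 and 5.57 at 24 h and 5.30 to 5.80 before (0.12, adjusted p = 0.42). The other probe, outside the set because it lay 0.43 below 0 h at 12 h, was higher at 24 h by 0.67 (adjusted p = 0.000176) and lay above 0 h by 2.20 after 48 h and by 2.56 in the control.

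**Figure D3:**
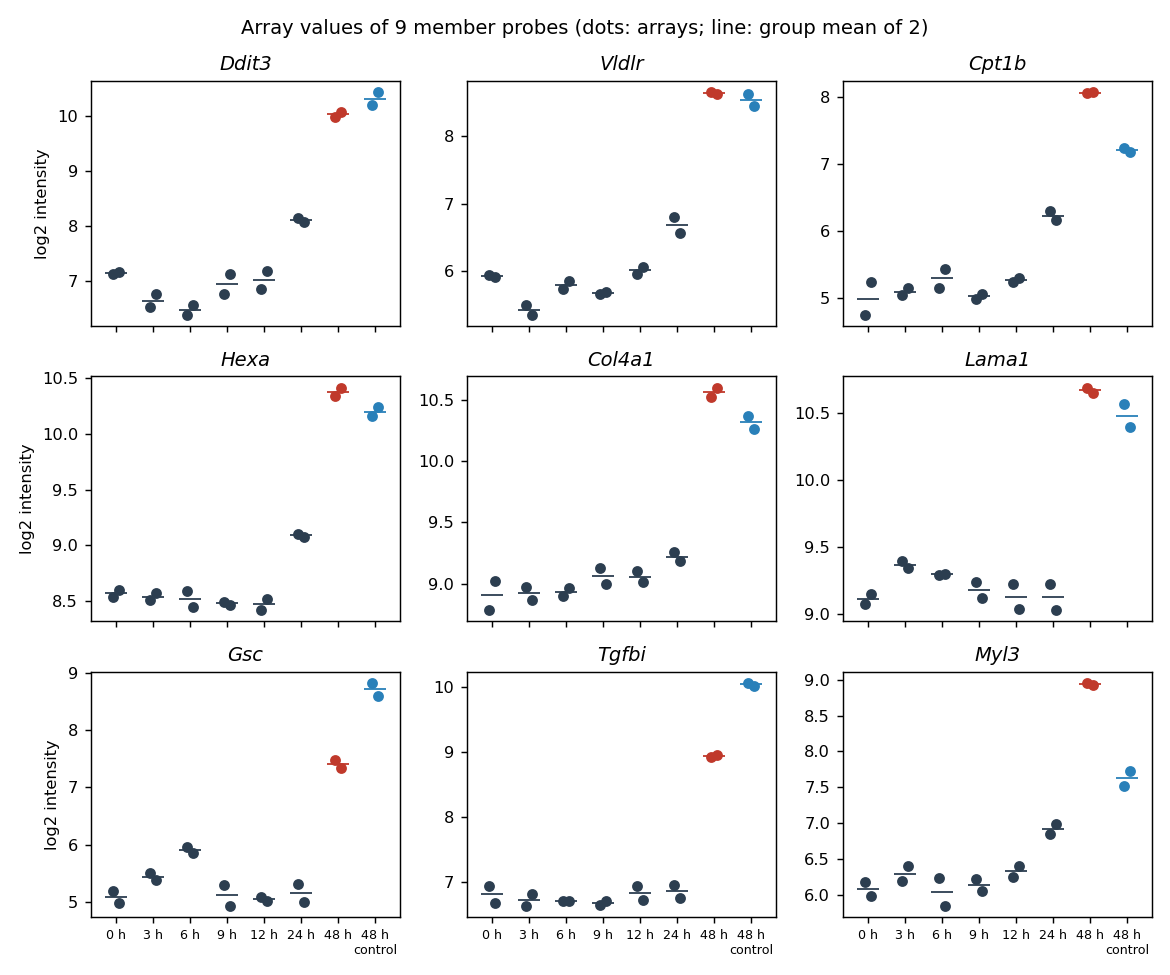
Normalized log2 intensity of 9 member probes on each array (dots; line, mean of the 2 arrays of a group) by group from 0 h to 48 h and the 48 h control, with 48 h in red and the control in blue. Ddit3, Vldlr, Cpt1b, Hexa, Col4a1 and Myl3 stand above the earlier arrays at 24 h, and Lama1, Gsc and Tgfbi do not. The difference between the 48 h groups was called for Cpt1b, Gsc, Tgfbi and Myl3. Their arrays also do not overlap for Ddit3, Hexa, Col4a1 and Lama1, which were not called.

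Among 9 genes of fatty acid, lipid and lipoprotein handling, 8 were higher at 24 h. Vldlr encodes the receptor for very low density lipoprotein and is held by 3 member probes. One of them had 6.80 and 6.57 at 24 h against 5.34 to 5.85 on the earlier arrays, 5.94 and 5.91 at 0 h, 8.66 and 8.62 at 48 h and 8.63 and 8.45 in the control. The 3 probes differed by 1.06 (SE 0.08, adjusted p = 1.2e-06), 1.04 (adjusted p = 2.18e-05) and 0.76 (adjusted p = 6.88e-05) at 24 h, so they moved alike. Cpt1b, the muscle form of the carnitine transferase that admits long-chain fatty acids to mitochondria, had 6.29 and 6.16 at 24 h against 4.99 to 5.44 before. It stood at 4.75 and 5.24 at 0 h, 8.05 and 8.06 at 48 h and 7.23 and 7.17 in the control. Its 24 h difference was 1.09 (SE 0.11, adjusted p = 1.06e-05), and no array of 24 h overlapped the earlier ones. Chkb, a kinase of phosphatidylcholine synthesis, was higher by 0.85 (SE 0.07, adjusted p = 1.9e-06) and had reached 47.7% of its late rise. Fabp3, the heart-type fatty acid binding protein, had 11.93 and 11.67 at 0 h. It had 12.21 and 12.13 at 24 h against 11.52 to 11.79 before, then 13.54 and 13.57 at 48 h and 13.47 and 13.63 in the control. The 24 h difference was 0.53 (adjusted p = 0.000423). Pdk4, which switches mitochondria from glucose to fat by inhibiting pyruvate dehydrogenase, was higher by 0.50 (adjusted p = 0.00195), Apoe, a carrier of lipids between cells, by 0.43 (adjusted p = 0.00251) and Cidea, a lipid droplet protein, by 0.46 (adjusted p = 0.00918). G0s2, an inhibitor of triglyceride lipase, was called too (adjusted p = 0.00302), but it was not well above background at 3, 6 and 9 h, so it is at least 1.04-fold higher only. Abca7, a lipid transporter, was at 5.89 and 5.69 at 24 h and 5.42 to 5.81 before (0.19, adjusted p = 0.166). A further Abca7 probe, outside the set, lay -0.06 from 0 h after 48 h and 0.21 in the control, so its 2 probes disagree.

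Of 8 genes of the lysosome and late endosome, 6 were higher at 24 h. Hexa, a subunit of the hexosaminidase that degrades gangliosides, had 9.10 and 9.08 at 24 h against 8.45 to 8.59 before, 8.53 and 8.60 at 0 h, 10.34 and 10.42 at 48 h and 10.16 and 10.24 in the control. The 24 h difference was 0.58 (SE 0.07, adjusted p = 5.75e-05), and the 24 h arrays stood apart from all 6 earlier ones. Ctsb, a cysteine protease, had 11.61 and 11.55 at 24 h against 10.99 to 11.21 before (0.46, adjusted p = 0.000292). Ctsh, a related protease (0.47, adjusted p = 0.00118), Atp6v1g1, a subunit of the proton pump that acidifies lysosomes (0.47, adjusted p = 0.00225), Stx7, a fusion protein of late endosomes (0.47, adjusted p = 0.00116), and Dram2, a lysosomal membrane protein linked to autophagy (0.38, adjusted p = 0.00985), were also higher. Further tested probes of Dram2, outside the set, were not called (0.24, adjusted p = 0.184, and -0.12, adjusted p = 0.449). The sialic acid exporter Slc17a5 had 6.11 and 6.07 at 24 h against 5.69 to 6.06 before (0.20, adjusted p = 0.0555). The protease Ctsc had 6.37 and 6.19 against 6.26 to 6.61 before (-0.13, adjusted p = 0.285).

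A list of 17 lysosome and autophagy genes placed these members among their kind. Of its 21 tested probes, Hexa and Ctsb are members, 12 were higher and 1 lower at 24 h against 3, 6 and 9 h, and 8 were higher and 0 lower at 48 h than in the control. The 19 probes that are not members had median differences from 0 h of 1.08 after 48 h and 0.90 in the control, where all tested probes outside the set had -0.03 and -0.04. Neu1, a sialidase, reached 2.74 and 2.18 but had moved by 0.56 at 12 h, which kept it out of the set. Likewise 2 probes of Lamp2, a lysosomal membrane protein, reached 2.13 and 1.61, and 2.07 and 1.66, and had moved by 0.45 and 0.37. Ctsd, the main aspartic protease, lay only 0.15 and 0.00 from 0 h.

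The list of 16 genes of amino acid response and ER stress, to which Ddit3 belongs, gave mixed values. Of 21 tested probes, 2 are members, both of Ddit3, and 9 were higher and 2 lower at 24 h than at 3, 6 and 9 h. The other 19 probes had median differences from 0 h of 0.24 after 48 h and 0.19 in the control. Chac1, a target of the same pathway, was higher at 24 h by 1.44 but lay only 0.56 and 0.54 above 0 h in the late groups, having stood 1.03 below it at 12 h. Hspa5, the main chaperone of the ER, lay at -0.53 and -0.69. Stc2, a secreted glycoprotein, was the other probe of the list with both late differences over the limit, at 1.30 and 1.60, and had a 12 h difference of -0.37.

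The type IV collagen and laminin members had differences of at most 0.29 at 24 h. Of 5 matrix genes, 3 were higher at 24 h, Col4a1, Col4a2 and Fbln1. Col4a1 and Col4a2 encode the paired chains of type IV collagen, and their starts lie 21 bases apart on opposite strands of chromosome 8. Col4a1 had 9.26 and 9.18 at 24 h against 8.87 to 9.13 before (0.25, adjusted p = 0.0374), and 10.52 and 10.60 at 48 h with 10.37 and 10.26 in the control. Col4a2 had 8.24 and 8.26 against 7.82 to 8.12 (0.29, adjusted p = 0.0222), and 9.51 and 9.68 at 48 h with 9.48 and 9.41 in the control. For both genes the 24 h arrays lay above all 6 earlier ones. Fbln1, a fibulin of elastic fibres and basement membranes, was higher at 24 h by 0.61 (adjusted p = 0.000129) on its member probe. Its 24 h difference from 0 h was 49.6% of its late rise. Of its tested probes outside the set, 1 was called (0.36, adjusted p = 0.0175). Another was not (0.21, adjusted p = 0.153). Lama1, the laminin chain of the early embryo, had 9.22 and 9.03 at 24 h and 9.12 to 9.39 before (-0.15, adjusted p = 0.184), then 10.69 and 10.65 at 48 h and 10.56 and 10.39 in the control. Its 24 h level was 0.9% of the way to its late level.

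Members of the list of primitive and definitive endoderm genes were Apoe, Col4a1, Col4a2, Lama1 and Pdgfra, 5 of its 18 tested probes. Over the list, 4 probes were higher and 3 lower at 24 h than before. Pdgfra, the receptor that marks primitive endoderm, had 5.63 and 5.78 at 24 h against 5.49 to 5.78 before (0.06, adjusted p = 0.622), then 7.18 and 7.06 at 48 h and 7.10 and 7.05 in the control. The 13 other probes had medians of 0.73 and 0.54 above 0 h. Gata6, a regulator of that lineage, lay at 0.74 and 1.28, and the 2 probes of Sox17 at 1.19 and 0.51, and 1.32 and 0.64. In the list of extracellular matrix genes, which holds the same Col4a1, Col4a2 and Lama1, 3 probes were higher and 3 lower at 24 h and the 13 others had medians of 0.54 and 0.44.

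Among 4 muscle or calcium-binding genes, 3 were called higher at 24 h. S100a1, a calcium sensor of heart muscle, had 5.97 and 6.04 at 24 h against at most 5.27 before, a difference of 0.83 (adjusted p = 0.000126), then 8.25 and 8.26 at 48 h and 8.22 and 8.38 in the control. Myl3, a myosin light chain of heart and slow muscle, had 6.85 and 6.99 against 5.85 to 6.40 (0.76, adjusted p = 0.000194). Cox6a2, the muscle form of a respiratory chain subunit, was called as well (adjusted p = 0.00318), but it was above background on no array before 48 h, so no fold is given for 24 h. S100a13 had 6.77 and 7.01 at 24 h against 6.66 to 6.82 before (0.17, adjusted p = 0.193).

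Of 5 other transcription factors, Nfatc4, a calcium-regulated factor (0.45, adjusted p = 0.00839), and Bcl6, a repressor known from germinal centres (0.35, adjusted p = 0.0188), were higher at 24 h. Gsc, the homeobox gene of the organizer, was lower, with 5.32 and 5.01 at 24 h against 4.94 to 5.96 before. It was near background, detected on 1 of the 2 arrays at 24 h and on 1 at 9 h. The difference was -0.33 (adjusted p = 0.0397), the groups overlapped, and the highest earlier arrays were those of 6 h. In the secretory pathway Kdelr3, a receptor that returns ER proteins from the Golgi, was the other lower member, with 7.77 on both arrays at 24 h against 7.82 to 8.37 (-0.27, adjusted p = 0.039). Its highest earlier arrays were also those of 6 h. Without 6 h replicate 1, 9 h replicate 1 or 24 h replicate 2, 0 members were lower, and without 3 h replicate 1 or 2, 6 h replicate 2 or 24 h replicate 1, 1 was. The coat subunit Copz2 was higher on both of its member probes (0.69 and 0.80, adjusted p = 0.000182 and 0.00102). Of its tested probes outside the set, 1 was higher by 0.42 (adjusted p = 0.00486). Another was not called (0.16, adjusted p = 0.211). The protease Furin, which matures secreted precursors, was higher too (0.53, adjusted p = 0.000261).

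Among the remaining groups, 6 of 7 genes of channels and membrane transport were higher at 24 h. P2rx4, an ATP-gated channel, and Aqp8, a water channel, were each called on 1 of their 2 probes (0.65, adjusted p = 0.000905, and 0.43, adjusted p = 0.0105). Of 5 redox and detoxification genes 4 were higher, such as the glutathione transferase Mgst3 (0.69, adjusted p = 0.000645), and Hpgd was at 4.89 and 5.04 against 4.80 to 5.30 before. Of 4 glycan enzymes only St3gal6, a sialyltransferase, was called (0.51, adjusted p = 0.00345). Outside these groups, Cd59b, an inhibitor of the complement pore, was higher by 0.89 (adjusted p = 3.04e-05) on its member probe. A further tested probe of Cd59b, dimmer at 0 h (4.71), was not called (0.02, adjusted p = 0.904). The close copy Cd59a makes the assignment to Cd59b uncertain.

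Both-array detection of members rose by 6 h, when the median member differed from 0 h by only 0.06, and again from 24 h on. Over all probes of the array, 12267 and 12221 were detected on the arrays of 0 h. There were 12302 and 12639 at 6 h and 12166 and 12509 at 24 h. No both-array share over all probes is given, so the counts below show nothing particular to the members. At a detection p under 0.05, 74 members were detected on both arrays of 0 h, 75 after 3 h, 82 after 6 h, 82 after 9 h, 81 after 12 h, 90 after 24 h and 100 both after 48 h and in the control. The last counts follow in part from the rule. On neither 0 h array and on all 4 late arrays stood 19 members, where 293 of all 13974 tested probes did so. Of these 19, 10 were detected on both 24 h arrays, 5 on 1 of them and 4, B4galnt2, Cox6a2, Slit2 and Hpgd, on neither. With a detection p under 0.01 the count was 32 members, where 380 of all 13974 tested probes had this pattern. Of the 32, 10 were on both 24 h arrays. At this cutoff both-array detection held for 60 members at 0 h, 68 after 6 h, 64 after 12 h and 76 after 24 h. Only 7 members passed the detection filter through the 48 h groups alone. Of the other 93, 66 were called higher at 24 h. The filter sees these levels, so the counts are a description.

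The clearest gain at 24 h was that of Scara3, a scavenger receptor-like protein induced by oxidative stress. Its log2 intensities were 5.76 and 5.48 at 24 h, against 4.49 to 4.69 on the arrays of 3, 6 and 9 h and 4.49 and 4.54 at 0 h, none of them above background. It then had 6.59 and 6.52 at 48 h and 5.76 and 5.82 in the control. It was at least 1.42-fold higher at 24 h (adjusted p = 2.23e-06), and above 0 h by at least 2.66-fold after 48 h and 1.57-fold in the control. It was 1 of 5 members detected on both 24 h arrays and on none of 3, 6 and 9 h, with N4bp2l1 (at least 1.32-fold), Zc3h6 (1.16-fold), Cyb5r2 (1.14-fold) and the gap junction gene Gjb2 (1.10-fold). Among all tested probes, 60 had this pattern. C2, a complement component, was undetected at 0 h, had 5.72 and 5.50 at 24 h, 7.98 and 7.81 at 48 h and 7.30 and 7.22 in the control, and was at least 6.77-fold and 4.35-fold above 0 h in the late groups.

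**Figure D4:**
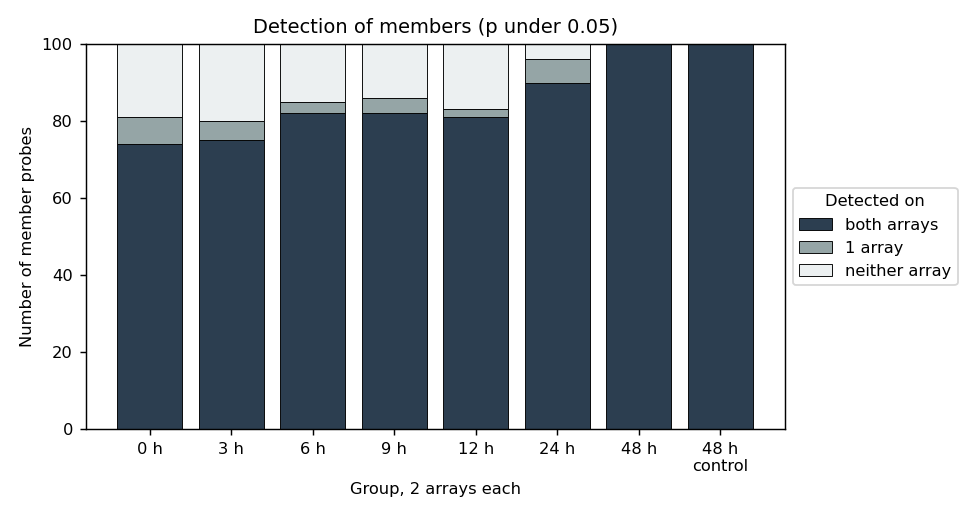
Number of the 100 member probes detected on both arrays (dark), on 1 array (grey) or on neither array (pale) of each group at a detection p under 0.05. Both-array detection held for 74 members at 0 h, 81 after 12 h, 90 after 24 h and 100 in both 48 h groups.

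The 48 h and control levels were then compared with each other. The rule used these arrays but not their difference, and since it asks for a rise in both, it limits how far they can part. Of the 100 members, 10 were higher and 13 lower at 48 h than in the control (limma, adjusted p under 0.05), where 8.85% and 9.05% of all tested probes were. Both 48 h arrays lay above both control arrays for 30 members and below them for 35, against 29.9% and 26.7% of all tested probes. The members' median difference was 0.00, with a range from -1.30 to 1.32, and that of all tested probes was 0.01. Of the 77 members with no call, 71 differed by less than 0.3, and the median 95% interval of a member's difference reached 0.25 to either side. Fabp3 had a difference of 0.01 with an interval from -0.21 to 0.23, Ctsb 0.04 (-0.14 to 0.23), Apoe 0.04 (-0.19 to 0.27) and Pdgfra 0.04 (-0.16 to 0.25). Ddit3 had -0.28 (-0.58 to 0.01) and Hexa 0.18 (-0.01 to 0.37). Of the 8 genes of the lysosome and late endosome, 0 were called by limma and 0 had an unadjusted p under 0.05, with differences of at most 0.18.

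Higher at 48 h than in the control were Myl3, Cpt1b, Scara3, Mbp, Krt7, C2, App, Hkdc1 and 2 probes with no gene symbol. Myl3 had 8.96 and 8.93 at 48 h, against 7.52 and 7.73 in the control. The groups did not overlap, and the difference was 1.32 (SE 0.13, adjusted p = 8.83e-06), 2.49-fold. Cpt1b differed by 0.86 (SE 0.14, adjusted p = 0.000502) and Scara3 by 0.77 (adjusted p = 0.000216), from the values given above. Krt7, a keratin of simple epithelia and trophectoderm, had 7.54 and 7.56 at 48 h against 7.03 and 6.71 (0.68, adjusted p = 0.00359). C2 differed by 0.64 (adjusted p = 0.00173), and App, the amyloid precursor protein, by 0.59 (adjusted p = 0.00179). With the RMA background correction, which the authors' processed values also carry, only 3 members were called higher, and Cpt1b, Scara3, Mbp and C2 were not called (adjusted p = 0.0545 to 0.0613). Mbp, the myelin basic protein, had 7.04 and 6.97 against 6.45 and 6.06 (0.75, adjusted p = 0.00209), while its other tested probe was lower at 48 h by 0.34 (adjusted p = 0.0348). Its direction therefore depends on the probe.

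Lower at 48 h than in the control were Gsc, Cidea, Tgfbi, Kdelr3, Ttyh2, Ly6g6e, Spic, Slit2, Dpep3, Mobp, Ddah2, S100a13 and Slc39a11. Gsc had 7.49 and 7.34 at 48 h, against 8.82 and 8.60 in the control and 5.20 and 4.98 at 0 h. The difference was -1.30 (SE 0.14, adjusted p = 1.27e-05), 2.46-fold lower. Tgfbi, a matrix protein named for its induction by TGF-beta, had 8.92 and 8.95 at 48 h against 10.07 and 10.02 in the control (-1.11, adjusted p = 8.58e-06), and 6.96 and 6.75 at 24 h against 6.64 to 6.82 before (0.15, adjusted p = 0.248). Cidea had 7.53 and 7.34 against 8.50 and 8.68 (-1.15, adjusted p = 5.32e-05). Kdelr3 had 9.35 and 9.09 against 10.26 and 10.14 (-0.98, adjusted p = 2.47e-05). In each of these pairs the arrays of the groups did not overlap. Ttyh2, a chloride channel-like membrane protein (-0.91, adjusted p = 0.00013), Ly6g6e, a surface protein of the Ly6 family (-0.78, adjusted p = 2.47e-05), Spic, an Ets factor (-0.74, adjusted p = 0.000136), and Slit2 (-0.67, adjusted p = 0.0007) followed. Dpep3, a dipeptidase of germ cells and a member from the germline list, differed by -0.53 (adjusted p = 0.00503).

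**Figure D5:**
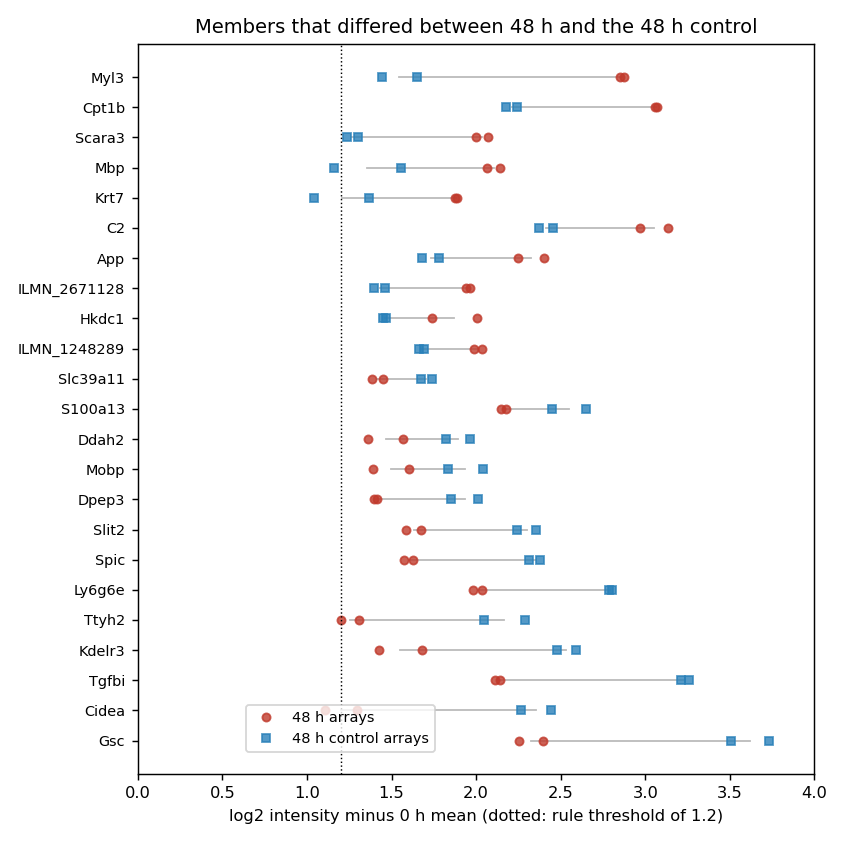
Log2 intensity minus the 0 h mean on the arrays of 48 h (red circles) and of the 48 h control (blue squares) for the 23 members that differed between these groups, ordered by the difference; the dotted line is the rule's threshold of 1.2 for group means. The 10 members at the top lie further right at 48 h and the 13 at the bottom further right in the control, and the arrays of the groups do not overlap for any of them.

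The early and late contrasts compare different arrays, but both use the same estimate of each probe's spread from all 16 arrays. Their calls are therefore not independent. Of the 10 members higher at 48 h than in the control, 9 had been called higher at 24 h against 3, 6 and 9 h, all but Hkdc1, where 71 of all 100 members and 13.7% of all tested probes were called higher. Of the 13 lower ones, 3 had been called higher at 24 h (Cidea, Ddah2 and Slc39a11), 2 lower (Gsc and Kdelr3) and 8 not at all. Whether these shares differ was not tested.

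Probes of the same genes outside the set were mostly raised late too. For 22 member genes, 29 further probes passed the detection filter, and 28 of them lay above 0 h at 48 h and in the control. The exception was the Abca7 probe. Another 16 probes of member genes did not pass the filter and are not counted. No such share is given for all tested probes. At least 0.5 was reached by 25 of the 29, and 1.2 by 2, of Mgst3 and Vegfa. These late differences use the same 0 h, 48 h and control arrays that chose the members, so they are a description and no independent check. A further 60 member genes have 1 probe on the array, so no other probe could be set beside it.

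Nearby sets chosen by like rules also had most of their probes called at 24 h, in the direction of their late change. The 76 probes that fell late in both groups, with 12 h within 0.3, had 60 lower and 1 higher at 24 h than at 3, 6 and 9 h and a median of -0.44, close to a mirror image of the members' 71, 2 and 0.43. The 150 probes with both late rises that lay 0.3 or more from 0 h at 12 h had 124 higher and 3 lower, with a median of 0.61. Against the control at 48 h, the late-falling set had 10 higher and 6 lower, and the early-moving set 29 higher and 18 lower. Their differences from the members were not tested. Of 26 gene lists, 10 held a member and 16 none. Beside those above, Gsc came from the mesoderm list, Krt7 from trophectoderm, Vegfa from hypoxia and glycolysis, Tgfbi from TGF-beta and BMP targets, Dpep3 from germline and Pdk4 from growth arrest and quiescence, each as 1 member. Of those lists, growth arrest and quiescence had 14 of 29 tested probes higher and 1 lower at 24 h, trophectoderm 7 and 3 of 16, TGF-beta and BMP targets 3 and 2 of 9, germline 2 and 1 of 14, hypoxia and glycolysis 1 and 5 of 18, and mesoderm 0 and 3 of 6.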

How the data were processed

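RNA from 16 samples was measured on 1 Illumina array each. Per the file headers, the authors deposited non-normalized probe intensities, which were linear and never negative, with a detection p-value per probe and array; 0 columns were left unmatched to a sample. The submitters' processing notes list RMA, lumi and BeadStudio 3.2, without roles. The deposited log2 values equalled the intensities after RMA background correction and quantile normalization, with a column median of 4.13. In limma 3.58.1 (R 4.3.3) the intensities were corrected by neqc (background from detection p-values, offset 16), quantile normalized and put on the log2 scale. The offset shrinks differences, most for dim probes. The 13974 probes detected (p under 0.05) on 2 or more of the 16 arrays were tested.

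All arrays entered 1 limma model, with a coefficient for each group (8 residual and 6.30 prior degrees of freedom), with Benjamini-Hochberg adjustment over all tested probes within a comparison. Values at 48 h, 12 h and in the control against 0 h chose the members and carry no test. A probe with a detection p of 0.05 or more on all arrays of a group has only a bound there: the bright mean over the mean of, per array, the probe's own value or the lowest value among detected probes, whichever is higher. Genes come from the platform's annotation, in which 23978 probes have 1 symbol, 0 several and 1719 none. Probes of a gene were kept apart.

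The members and gene lists were chosen with earlier results of these data known. Genes were named by rule: the 10 highest at 24 h, the 6 highest and 6 lowest against the control, the 10 largest late differences, up to 3 per gene list, and the 3 nearest the threshold on either side. Other named genes were chosen after their values were seen. The procedure was tested on simulated data. Same-numbered arrays deviated from their group means with correlations of -0.07 to 0.29 over 28 pairs of groups, 16 of them above 0.1, so numbers were not treated as pairing. Precision is limited by the number of arrays; the median within-group SD was 0.12. Alternatives covered background, offset, normalization, filter, spread estimate, replicate block, the deposited log2 values and single arrays left out.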

Additional observations from a re-analysis of the deposited data

Results flagged for a closer look

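12 members are listed because the effect in the induced cells and in the control, both relative to 0 h, differed by a test of the difference itself (limma, 48 h against the control). Higher at 48 h were Myl3 by 1.32 on the log2 scale, Cpt1b by 0.86, Scara3 by 0.77, Mbp by 0.75, Krt7 by 0.68 and C2 by 0.64, with adjusted p from 8.83e-06 to 0.00359. Lower at 48 h were Gsc with -1.30, Cidea with -1.15, Tgfbi with -1.11, Kdelr3 with -0.98, Ttyh2 with -0.91 and Ly6g6e with -0.78, with adjusted p from 8.58e-06 to 0.00013. These are the 6 highest and 6 lowest members of that comparison, so they were picked for their size. The control may have started from another level than the 0 h arrays, and the labels do not settle this.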

How the results depend on the processing

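Membership depended on the background correction. The rule found 30 probes without one, 172 with the RMA correction or with the deposited log2 values, and 65 with an offset of 50; 18, 76, 76 and 50 of them were among the 100. Counts of 92 to 110 came from leaving out 1 array, and the other settings gave 90 to 101. Of the 100 members, 60 to 72 were higher at 24 h under every setting, and 52 to 71 with 1 array left out. The 2 lower at 24 h became 1 (no background correction, offset 50, median scaling) or 0 (RMA, deposited values, cyclic loess, no filter, adjusted p under 0.01), and 0 to 2 with an array left out. At 9 h against 3 h, higher members numbered 1 without background correction or filter, 4 with median scaling or the stricter filter, 5 with trend and robust moderation and 0 at an adjusted p under 0.01. Lower members numbered 0 without background correction, with median scaling or at an adjusted p under 0.01, and 1 with RMA, the deposited values or no filter. Leaving out arrays gave 0 to 4 and 0 to 2. Against the control, 3 members were higher with RMA or the deposited values and 23 lower without background correction; leaving out arrays gave 7 to 10 and 9 to 14. The cause was not tested. A replicate block gave other counts: 72 and 2 called at 24 h, 3 and 3 at 9 h and 11 and 16 against the control, and it moved no count by over 1.5 times. Gain of detection was 32 members at p under 0.01, where 380 of all tested probes had it. Of 594 alternative values for 22 named results, 585 kept their direction and side of the threshold, 0 reversed and 9 lost the call (Cpt1b, Scara3, Mbp and C2 with RMA or the deposited values; Krt7 without control replicate 2, adjusted p = 0.054). Leaving out an array outside a comparison cannot change its difference, only its p-value. The deposited values repeat the RMA setting, and the 22 results were picked for their size. The count of 585 is thus in part fixed in advance. Dim members have bounds only. Counts of shared members, medians at 9 h and values over all probes were added after seeing the data.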
